A study of Mus musculus with 18 samples.

Results

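The 9 genes described here encode proteins that crosslink, coat or pull on actin filaments, hold actin monomers, or tether signalling enzymes beside them. They are the filamins Flna and Flnc, the alpha-actinins Actn1 and Actn4, the tropomyosins Tpm1 and Tpm4, the non-muscle myosin heavy chain Myh9, the thymosin Tmsb10 and the A-kinase anchoring protein Akap12. They were chosen by name, with their transplant and sham values known, from a table of 54691 genes measured by RNA sequencing of mouse kidney. The deposited symbols lack many capital letters A and N, so names were matched after deleting both letters. Each of the 9 names then matched 1 row whose repaired Ensembl identifier carries that name in the annotation. All 9 passed the filter on low values, 1 FPKM or more in 3 or more libraries, as did 15260 genes in all. Flnc passed through transplant libraries alone. Since transplant and sham values chose these genes, the values that set transplant against sham are given as a description, with no test.

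The study followed kidneys after cold storage-associated transplantation and compared them with kidneys of sham-operated mice; the labels name renal cortex as the source of the RNA. There were 18 libraries in 6 groups of 3: wild-type sham and wild-type transplant, each at day 1, day 7 and day 14. The labels used here do not give the strain, sex or age of the mice, the donor and host, or the time in the cold, and they do not say that the 3 libraries of a group came from separate animals. The p-values therefore measure the spread between libraries, which may be technical. The labels of every library also carry text on a diabetes model, on ischemia-reperfusion and on a rat proximal tubule cell line, which is at odds with the titles; the groups follow the titles.

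Actin filaments are built from actin monomers and organised by binding proteins. Filamins join filaments at an angle into loose networks and anchor them to membrane receptors, whereas alpha-actinins tie them into bundles. Tropomyosins lie along the filament and set which other proteins reach it, and non-muscle myosin II pulls on it. In the kidney, podocytes depend on ACTN4 and MYH9, since variants of both genes in people cause glomerular disease, and tubule cells carry a dense actin brush border that is lost and rebuilt around injury. Many genes of the actin cytoskeleton are targets of serum response factor, which its cofactors of the MRTF family switch on when free actin monomer runs low.

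Values are FPKM, fragments scaled for transcript length and for the number of mapped fragments, a level per length that can be compared between genes. Summed FPKM ranged from 386739 to 524259 per library. The share of this sum on mitochondrial genes was 28.8% to 31.6% in sham libraries, 16.9% to 24.7% in transplant libraries at day 1, 14.4% to 17.8% at day 7 and 23.0% to 27.7% at day 14. With that shift, the median gene lay above sham in the transplant kidney by 0.31, 0.41 and 0.27 on the log2(FPKM + 1) scale at days 1, 7 and 14. Under median-of-ratios scaling, which centres each library on its typical gene, these medians were 0.03, 0.02 and 0.02. Differences below are on the log2(FPKM + 1) scale with the standard error (SE) of limma's fit, and understate changes of genes near 0.

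RefSeq promoter windows, 250 bases before to 50 bases after a transcript start in the GRCm38.p6 build, were available for 8 of the 9 genes; Akap12 had none. They were searched on both strands for 3 motifs of factors that act on cytoskeletal genes. For the CArG box bound by serum response factor, the letters were CCWWWWWWGG, with W for A or T and no mismatch allowed. They were found in 0 of 8 genes, against 1.81% of 27025 genes with windows. The AP-1 motif TGANTCA was found in 1 of 8, Actn4, against 8.97% of genes. The TEAD motif GGAATG, or its reverse complement CATTCC, was found in 4 of 8, against 16.6% of genes. A match is a run of letters and says nothing of binding. The windows of the 4 genes with the TEAD letters follow because they show where in each promoter these letters lie. They are written 5′ to 3′ along the gene's strand, with the TEAD letters in capitals.
Flna, chrX:74246485-74246784, minus strand: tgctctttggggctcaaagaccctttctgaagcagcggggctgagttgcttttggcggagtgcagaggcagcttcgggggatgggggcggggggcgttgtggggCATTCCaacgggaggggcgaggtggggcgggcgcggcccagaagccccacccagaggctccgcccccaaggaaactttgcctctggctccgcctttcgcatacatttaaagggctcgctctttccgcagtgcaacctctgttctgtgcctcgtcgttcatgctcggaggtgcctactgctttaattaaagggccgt
Flnc, chr6:29433006-29433305, plus strand: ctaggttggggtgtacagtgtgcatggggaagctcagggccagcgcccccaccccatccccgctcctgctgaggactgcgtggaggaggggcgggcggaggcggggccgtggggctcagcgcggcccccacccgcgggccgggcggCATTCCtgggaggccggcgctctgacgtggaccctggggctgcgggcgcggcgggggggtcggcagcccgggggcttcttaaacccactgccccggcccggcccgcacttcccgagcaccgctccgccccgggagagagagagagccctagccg
Actn4, chr7:28962283-28962582, minus strand: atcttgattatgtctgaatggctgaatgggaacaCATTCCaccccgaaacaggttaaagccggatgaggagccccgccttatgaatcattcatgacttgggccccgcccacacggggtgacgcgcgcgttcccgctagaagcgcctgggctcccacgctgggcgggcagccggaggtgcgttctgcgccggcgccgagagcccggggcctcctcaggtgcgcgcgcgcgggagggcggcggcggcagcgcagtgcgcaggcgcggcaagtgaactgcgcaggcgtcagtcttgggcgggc
Tpm1, chr9:67049164-67049463, minus strand: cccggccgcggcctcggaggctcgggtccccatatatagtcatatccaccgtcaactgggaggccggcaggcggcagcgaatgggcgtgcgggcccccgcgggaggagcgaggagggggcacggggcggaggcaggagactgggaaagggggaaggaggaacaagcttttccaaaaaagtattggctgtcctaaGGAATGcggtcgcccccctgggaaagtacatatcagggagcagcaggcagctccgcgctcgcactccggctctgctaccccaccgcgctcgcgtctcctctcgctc
The first base of the capitals lies 146 bases before the start in Flna, 104 in Flnc, 216 in Actn4 and 56 in Tpm1. The Flna window lies inside the annotated span of the gene, so it belongs to an internal start. Flnc has a 2nd RefSeq window, in which the same letters begin 1 base before the start and run on into the transcribed bases.

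At each of the 3 days, every transplant library lay above every sham library of that day for all 9 genes, a separation that 37.9%, 48.5% and 31.6% of tested genes showed at days 1, 7 and 14. In the limma fit, 9, 9 and 8 of the 9 were called higher at days 1, 7 and 14 (adjusted p below 0.05), as were 29.6%, 35.5% and 22.4% of all tested genes; the gene not called was Actn4. Nothing is read from these counts, since the same contrasts chose the genes. The median difference over the 9 was 2.46, 2.44 and 1.69 at days 1, 7 and 14. In RNA of bulk kidney, fewer cells of a type and less RNA per cell cannot be told apart.

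**Figure D1:**
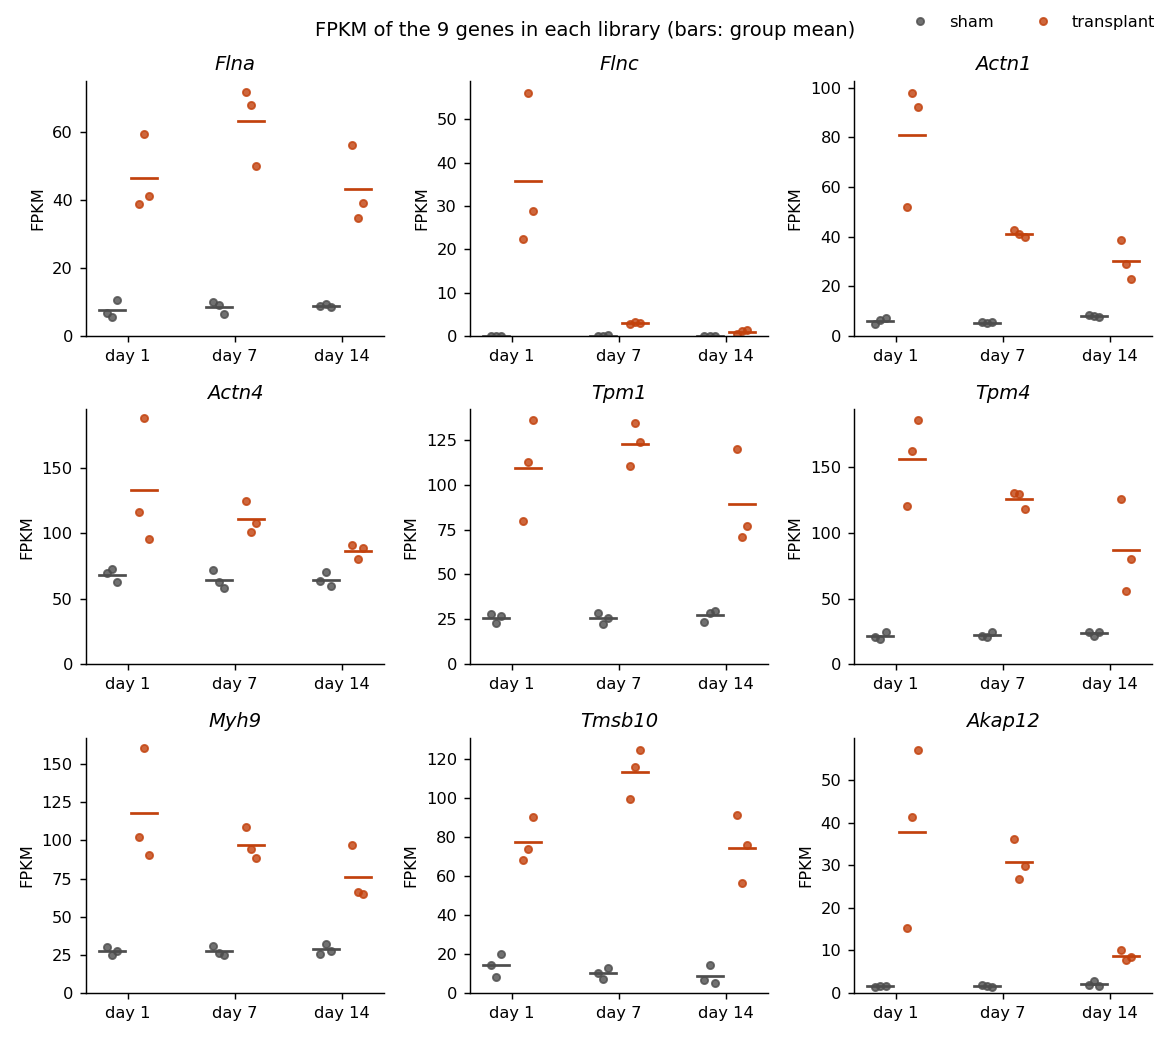
FPKM of each of the 9 genes (y axis, a scale of its own per gene) by day (x axis), with a point per library and a bar at the mean of 3; sham is grey and transplant orange. The transplant means of Flnc and Akap12 were lower at day 14 than at day 1, 1.01 against 35.7 and 8.79 against 37.9 FPKM, whereas Flna and Tmsb10 had about the same mean at days 1 and 14.

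Flna encodes the filamin found in most non-muscle cells. Its 3 sham libraries read 6.89, 5.68 and 10.5 FPKM at day 1 and its 3 transplant libraries 38.8, 59.3 and 41.2. At day 7 sham read 10.01, 9.21 and 6.49 and transplant 71.6, 67.8 and 49.9. At day 14 sham read 8.88, 9.25 and 8.42 and transplant 56.2, 34.6 and 39.1. The lowest transplant library of any day was thus above 3 times the highest sham library, and the 3 transplant groups overlapped each other. The mean was 6.03, 7.36 and 4.89 times that of sham at days 1, 7 and 14. On the log2 scale the difference was 2.46 ± 0.23, 2.75 ± 0.23 and 2.14 ± 0.23 (SE).

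Flnc encodes the filamin of striated muscle, where it sits at the Z-disc. It was almost absent from the sham kidney, with 0.0114, 0.0194 and 0.0193 FPKM in the day 1 libraries, 0.0623, 0.0624 and 0.131 at day 7 and 0.0227, 0.0727 and 0 at day 14. Transplant libraries read 22.4, 56.0 and 28.8 FPKM at day 1, 2.74, 3.23 and 3.06 at day 7 and 0.521, 1.06 and 1.44 at day 14. The 3 transplant days did not overlap: day 1 was highest, then day 7, then day 14, which still lay above every sham library. The mean at day 7 was 8.42% of that at day 1, and the mean at day 14 was 2.82%. The log2 difference was 5.07 ± 0.26, 1.88 ± 0.26 and 0.93 ± 0.26 (SE), a size that depends on the pseudocount because sham lay near 0. With a pseudocount of 0.1 it was 8.15, 4.09 and 3.01, and with 5 it was 2.94, 0.65 and 0.25. At day 14, Flnc was no longer called with a pseudocount of 5, with a fit of 2 groups alone, or without transplant day 14 replicate 3. Markers of skeletal and cardiac muscle summed to 0.138 to 0.620 FPKM in the transplant libraries of day 1, where the mean of Flnc was 35.7 FPKM. Ckm, Myh4 and Actc1 were listed at 0 in all 18 libraries, and Acta1 read at most 1.57 FPKM in any library. The part of muscle in the Flnc level was not tested.

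Actn1 and Actn4 encode the alpha-actinins of non-muscle cells, which bundle filaments and link them to adhesions. Actn1 read 4.66, 6.27 and 7.36 FPKM in sham and 52.1, 98.0 and 92.4 in transplant libraries at day 1, 5.53, 5.11 and 5.49 and 42.8, 40.9 and 39.8 at day 7, and 8.49, 8.25 and 7.83 and 38.6, 29.1 and 22.9 at day 14. Its transplant means were 13.3, 7.66 and 3.69 times those of sham. The 3 transplant days did not overlap and stood in the order day 1, day 7, day 14. The log2 difference was 3.49 ± 0.21, 2.73 ± 0.21 and 1.73 ± 0.21 (SE).

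Actn4, the actinin of the podocyte foot process, had the highest sham level of the 9 genes. It read 69.6, 73.1 and 62.9 FPKM in sham and 116, 188 and 95.4 in transplant libraries at day 1, 72.2, 62.7 and 58.5 and 125, 101 and 108 at day 7, and 63.4, 70.9 and 59.5 and 90.8, 80.2 and 88.8 at day 14. The groups did not overlap on any day, but the means were 1.94, 1.73 and 1.34 times those of sham, the smallest ratios among the 8 genes with a ratio. Its log2 difference of 0.89 ± 0.18, 0.78 ± 0.18 and 0.42 ± 0.18 (SE) lay 0.58, 0.37 and 0.15 above that of the median gene. Under median-of-ratios scaling it was 0.51, 0.29 and 0.10, and Actn4 was then not called at day 7 or day 14. Podocyte markers summed to 60.2 to 77.2 FPKM in sham and 84.0 to 102 in transplant libraries at day 1, 71.0 to 81.2 and 87.1 to 93.3 at day 7, and 76.9 to 81.5 and 79.0 to 92.5 at day 14. Of these 6 markers, 3, 2 and 1 rose and 1, 1 and 0 fell at days 1, 7 and 14. Of all tested genes, 29.6%, 35.5% and 22.4% rose and 9.56%, 6.01% and 5.12% fell. The median difference of the markers was 0.45, 0.38 and 0.11, beside 0.31, 0.41 and 0.27 over all tested genes. The part of podocytes in the Actn4 level was not tested.

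Tpm1 and Tpm4 encode tropomyosins, coiled-coil proteins that lie along actin filaments; the kidney isoforms cannot be told apart at gene level. Tpm1 read 27.9, 23.3 and 26.7 FPKM in sham and 79.5, 112 and 136 in transplant libraries at day 1, 28.5, 22.5 and 26.0 and 110.2, 134 and 124 at day 7, and 23.6, 28.6 and 29.5 and 119.5, 70.9 and 77.1 at day 14. Its 3 transplant groups overlapped, and the mean was 4.21, 4.78 and 3.27 times that of sham. Tpm4 read 21.1, 19.3 and 24.5 FPKM in sham and 121, 162 and 186 in transplant libraries at day 1, 21.8, 20.8 and 24.7 and 130.5, 129.6 and 119 at day 7, and 24.9, 21.6 and 24.9 and 126, 56.3 and 80.4 at day 14. Neighbouring transplant days overlapped here too, with ratios to sham of 7.22, 5.62 and 3.67. Log2 differences were 2.0 ± 0.20, 2.22 ± 0.20 and 1.64 ± 0.20 (SE) for Tpm1, and 2.78 ± 0.21, 2.44 ± 0.21 and 1.76 ± 0.21 (SE) for Tpm4.

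Myh9 encodes the heavy chain of non-muscle myosin IIA, the motor that slides actin filaments. Its libraries read 30.3, 25.0 and 27.3 FPKM in sham and 102, 160.4 and 90.7 in transplant at day 1, 31.0, 26.5 and 25.0 and 109, 94.3 and 88.4 at day 7, and 25.8, 32.2 and 27.5 and 96.7, 66.3 and 65.2 at day 14. Neighbouring transplant days overlapped, all above sham. The mean was 4.27, 3.54 and 2.67 times that of sham, with log2 differences of 2.02 ± 0.19, 1.79 ± 0.19 and 1.37 ± 0.19 (SE).

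Tmsb10 encodes thymosin beta 10, a small peptide that binds actin monomers and keeps them out of filaments. Sham libraries read 14.4, 8.12 and 20.0 FPKM at day 1, 10.3, 7.38 and 12.97 at day 7 and 6.60, 14.3 and 5.20 at day 14, a wide spread for the sham groups. Transplant libraries read 68.0, 73.9 and 90.3, then 99.5, 116 and 125, then 90.9, 56.2 and 75.6. Day 7 lay above day 1 in every transplant library, while day 14 overlapped day 1. The ratio to sham was 5.45, 11.1 and 8.55, and the log2 difference 2.44 ± 0.31, 3.37 ± 0.31 and 3.04 ± 0.31 (SE), so that day 1 had the smallest difference, as it did in no other of the 9 genes.

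Akap12, also called gravin, encodes a scaffold that holds protein kinases A and C at the cell edge; it is not itself a filament crosslinker. Sham libraries read 1.40, 1.74 and 1.71 FPKM at day 1, 1.83, 1.60 and 1.30 at day 7 and 1.89, 2.73 and 1.55 at day 14. Transplant libraries read 15.2, 41.4 and 57.2 at day 1, 36.2, 26.7 and 29.7 at day 7 and 10.04, 7.75 and 8.56 at day 14. Days 1 and 7 overlapped, and day 14 lay below day 7 in every library. The mean was 23.4, 19.6 and 4.28 times that of sham, with log2 differences of 3.71 ± 0.31, 3.62 ± 0.31 and 1.69 ± 0.31 (SE).

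**Figure D2:**
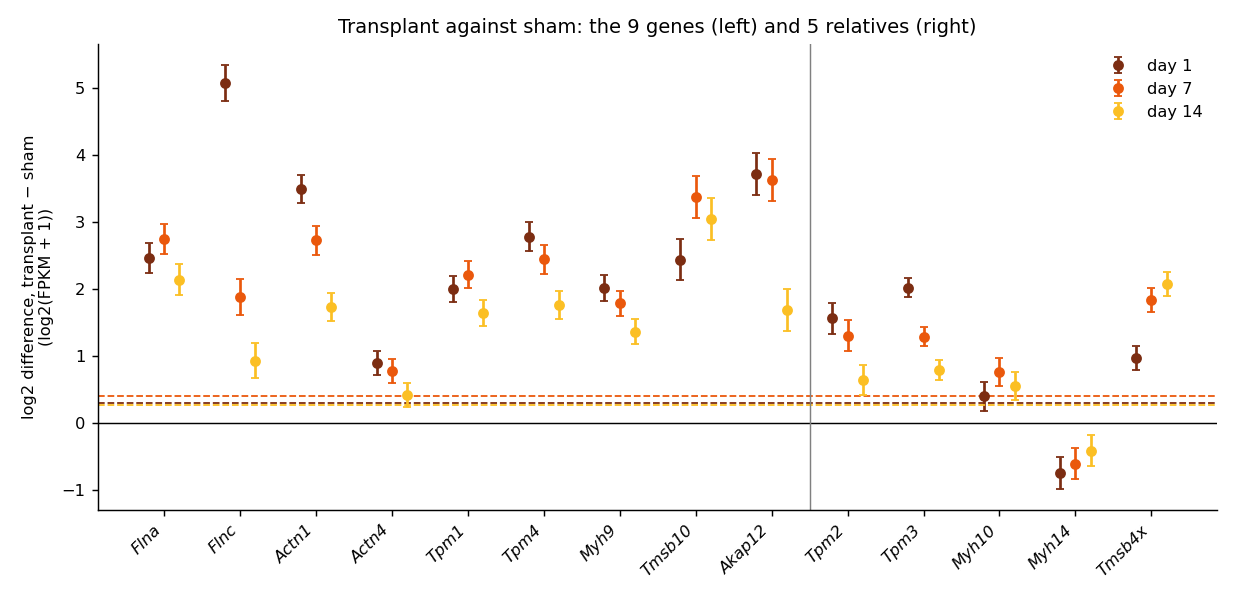
Difference between transplant and sham means on the log2(FPKM + 1) scale (y axis) for the 9 genes and 5 relatives (x axis), with SE bars from limma's fit; the dashed lines mark the median of all tested genes at each day. Among the 9, Flnc spans from 5.07 at day 1 to 0.93 at day 14 and Actn4 lies nearest the dashed lines; of the relatives, Myh14 is below 0.

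The 9 genes differed in how far their transplant level had come down by day 14. Relative to its own transplant mean at day 1, the mean at day 14 was 2.82% for Flnc, 23.2% for Akap12 and 37.4% for Actn1. It was 56.0% for Tpm4, 64.6% for Myh9 and 65.0% for Actn4, and 81.6%, 93.1% and 95.9% for Tpm1, Flna and Tmsb10. The last 3 peaked at day 7, at 112%, 136% and 146% of their day 1 mean. Between day 1 and day 14, the transplant-minus-sham difference dropped by 4.14 for Flnc, by 2.02 for Akap12, by 1.76 for Actn1 and by 1.02 for Tpm4 (log2 scale). No test is given, as the values chose the genes; over all tested genes, 4.37% had an effect called different between days 7 and 1, 0.616% between days 14 and 7 and 10.3% between days 14 and 1.

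Among transplant libraries of day 1, replicate 2 was highest for 5 genes (Flna, Flnc, Actn1, Actn4 and Myh9), replicate 3 for the other 4, and replicate 1 lowest for 7. At day 14, replicate 1 was highest for 8 of the 9, all but Flnc. Profiles over the 18 libraries were compared by the root mean square (RMS) difference of log2(FPKM + 1) about each gene's own mean, as a description. Tpm1 and Myh9 were most alike (0.288), followed by Tpm1 and Tpm4 (0.298) and Actn1 and Tpm4 (0.343). Flnc and Actn4 were least alike (1.47).

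Contrasts between sham groups were not used to choose the genes. There, 0 of the 9 were called between any pair of days, with limma adjusted p = 1 for each. Over all tested genes 0%, 0% and 0.00655% were called for day 7 against 1, day 14 against 7 and day 14 against 1. At an unadjusted p under 0.05, 1 of the 9 passed in each of 2 contrasts: Actn1, 0.53 ± 0.21 for day 14 against day 7, and Tmsb10, -0.68 ± 0.31 for day 14 against day 1 (log2, SE). Flnc, at most 0.131 FPKM in sham, could hardly be called in these contrasts on the log2(FPKM + 1) scale.

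Each gene's share of its family, in summed FPKM, does not depend on the scaling of a library. Of the summed FPKM of Flna and Flnc, Flnc made up 0.230% ± 0.0967 (SD, n = 3) in sham at day 1 and 42.1% ± 6.06 in transplant, then 4.67% ± 1.05 and 2.48% ± 1.38 in transplant at days 7 and 14. The sham share was 1.09% ± 0.772 at day 7 and 0.345% ± 0.397 at day 14.

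Of the alpha-actinin FPKM, Actn1 made up 8.22% ± 2.12, 7.74% ± 0.757 and 11.3% ± 0.751 in sham at days 1, 7 and 14, against 38.1% ± 9.74, 27.1% ± 1.59 and 25.6% ± 4.73 in transplant (SD, n = 3). Actn4 remained the larger of the pair in all 18 libraries. Tpm4 took 23.7% ± 0.471 of tropomyosin FPKM in sham and 35.1% ± 1.34 in transplant at day 1, with 33.7% ± 4.85 in transplant at day 14. Tpm1 took 28.5% ± 2.19 in sham and 24.4% ± 2.08 in transplant at day 1, with overlapping ranges, although its level was higher in transplant. Later its share was higher in transplant without overlap. Sham and transplant read 27.6% ± 2.83 and 33.9% ± 2.54 at day 7, and 28.7% ± 3.35 and 35.1% ± 0.816 at day 14. Myh9 already made up most of the non-muscle myosin II heavy chains in sham, at 66.0% ± 1.75 at day 1, and took 89.0% ± 0.572 in transplant. Tmsb10 stood at 13.8% ± 5.72 of the thymosin pair in sham and 30.4% ± 3.31 in transplant at day 1, and at 16.1% ± 2.05 in transplant at day 14.

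**Figure D3:**
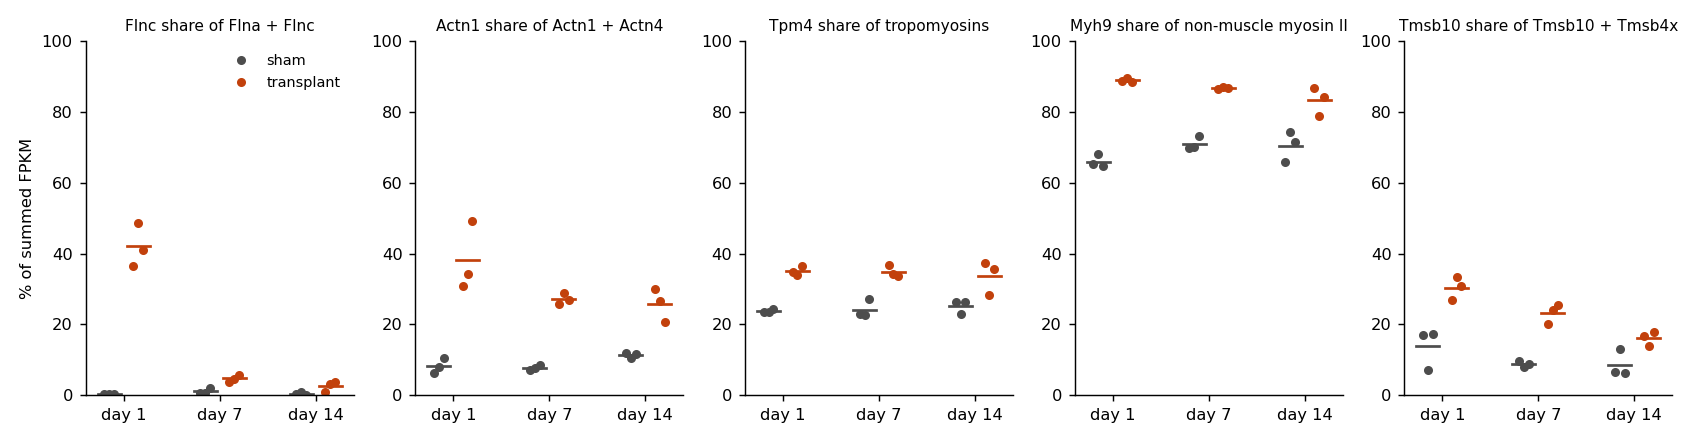
Share of each gene in the summed FPKM of its family, in percent (y axis), by day (x axis); points are libraries and bars the mean of 3. Every transplant library lies above every sham library of its day in all 5 panels, and the Flnc share is far larger at day 1 than later.

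The relatives that were not chosen were tested. Tpm3, a broadly expressed tropomyosin, rose by 2.02 ± 0.15, 1.29 ± 0.15 and 0.80 ± 0.15 on the log2 scale (limma adjusted p = 8.15e-09, 2.87e-06 and 0.000605), from 39.5 to 165 FPKM at day 1. Tpm2, a tropomyosin abundant in muscle, rose by 1.56 ± 0.23 and 1.31 ± 0.23 at days 1 and 7 and by 0.65 ± 0.23 at day 14 (adjusted p = 2.86e-05, 0.000241 and 0.0418). Its call at day 14 was lost under median-of-ratios scaling, at 0.37, without the filter, in a fit of 2 groups, without replicate 1 or 3 of sham or of transplant day 14, and with a replicate block (limma adjusted p = 0.0504 to 0.268).

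Of the other non-muscle myosin II heavy chains, Myh10 read 0.40 ± 0.21, 0.76 ± 0.21 and 0.56 ± 0.21 at the 3 days and was called at day 7 (limma adjusted p = 0.143, 0.00868 and 0.0587). The day 7 call was lost under median-of-ratios scaling, at 0.32, and without sham day 7 replicate 3, at 0.58, and day 14 was called at equal FPKM sums, at 0.71, and without sham day 14 replicate 1, at 0.68; no difference between days was called. Myh14 fell, with log2 differences of -0.74 ± 0.24 at day 1 and -0.60 ± 0.24 at day 7, and read -0.40 ± 0.24 at day 14 (adjusted p = 0.0185, 0.0484 and 0.214). Its day 7 call was lost in each of the 6 fits that left out a library, with either other pseudocount, without the filter and at equal sums (limma adjusted p = 0.0503 to 0.214). Its day 1 call was lost at equal sums and without sham day 1 replicate 1 or transplant day 1 replicate 3 (0.0511 to 0.0995), while day 14 was called under median-of-ratios scaling, at -0.66, and without transplant day 14 replicate 2, at -0.67. Its mean was 6.22 ± 1.54 FPKM in sham and 3.30 ± 0.650 in transplant at day 1 (SD, n = 3). Tmsb4x, the major thymosin of most cells, rose by 0.97 ± 0.18, 1.84 ± 0.18 and 2.07 ± 0.18 (adjusted p = 0.000305, 5.18e-07 and 2.91e-07), from 90.3 to 385 FPKM at day 14. Actn2 and Actn3, the alpha-actinins of striated muscle, did not pass the filter, with at most 0.201 and 0.243 FPKM in any library, nor did Tmsb15a. Tmsb15b1, Tmsb15b2 and Tmsb15l were tested and not called, with at most 3.30, 8.45 and 5.39 FPKM; they are near-identical copies whose reads the counting could split.

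Over 9 lists of other actin genes, 133 of 151 genes were tested. At day 1, 92 rose and 3 fell, at day 7, 99 rose and 3 fell, and at day 14, 75 rose and 4 fell (limma, adjusted p below 0.05). All tested genes were called higher at 29.6%, 35.5% and 22.4% and lower at 9.56%, 6.01% and 5.12%. The median difference over the 133 was 0.87, 0.82 and 0.63, beside 0.31, 0.41 and 0.27 over all tested genes. Under median-of-ratios scaling 69, 57 and 45 rose and 9, 5 and 8 fell, where 14.8%, 11.7% and 11.5% of all genes were called higher and 15.5%, 12.8% and 11.1% lower.

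**Figure D4:**
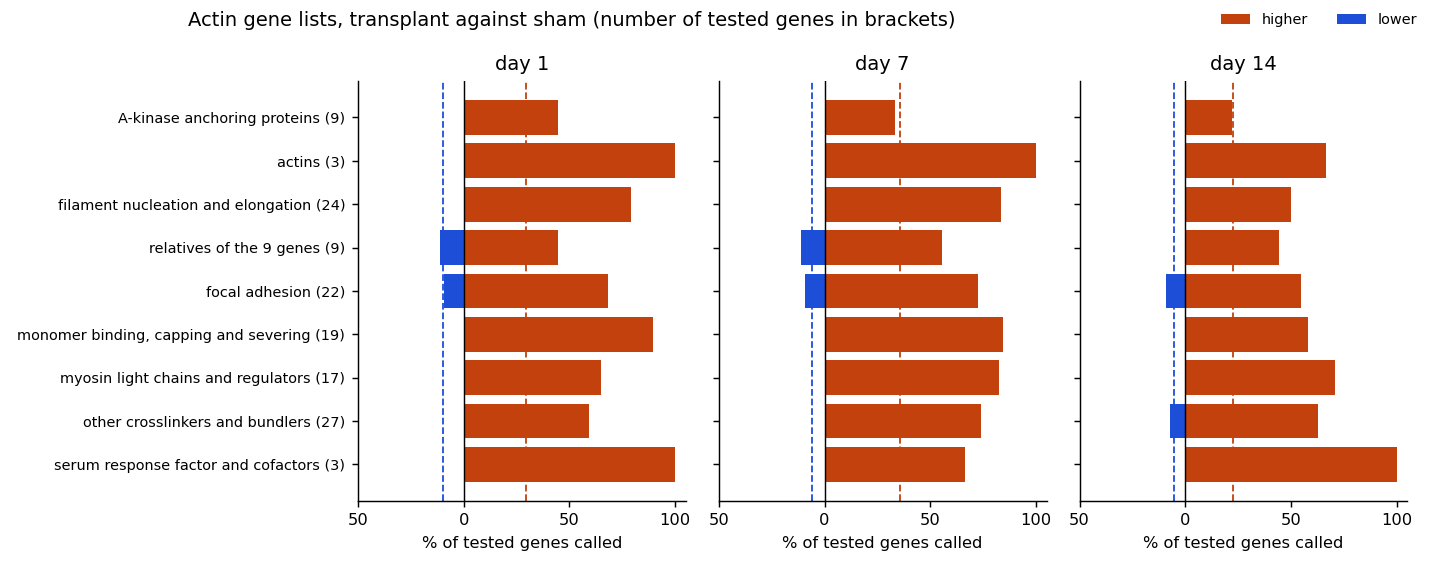
Share of the tested genes of each list called higher (orange, to the right) or lower (blue, to the left) in transplant against sham, in percent (x axis), per list (y axis) and day; dashed lines mark the shares over all tested genes. Most lists pass the orange line at all 3 days, while the A-kinase anchoring proteins lie near it at days 7 and 14.

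Of the actins, all 3 tested rose at days 1 and 7, and 2 at day 14. Acta2, the smooth muscle actin, rose by 1.08 ± 0.29 and 1.21 ± 0.29 and read 0.77 ± 0.29 at day 14 (limma adjusted p = 0.00673, 0.00321 and 0.0581). Under median-of-ratios scaling it was not called at day 1 or 7, at 0.73 and 0.75. Day 14 was called with a mean of at least 5 FPKM, at equal FPKM sums, at 0.92, and in a fit of 2 groups (limma adjusted p = 0.0493, 0.0259 and 0.0118). Actb, cytoplasmic beta-actin, rose by 1.93 ± 0.16, 1.5 ± 0.16 and 0.95 ± 0.16, from 208 to 805 FPKM at day 1 (adjusted p = 2.99e-08, 1.16e-06 and 0.000253). Actg1, cytoplasmic gamma-actin, rose by 2.01 ± 0.16, 1.48 ± 0.16 and 0.87 ± 0.16 (adjusted p = 1.98e-08, 1.46e-06 and 0.000550). Of 27 other crosslinkers and bundlers, 16 rose at day 1, 20 at day 7 and 17 at day 14. Plec, the giant linker of actin and intermediate filaments, rose by 2.17 ± 0.24, 1.54 ± 0.24 and 1.35 ± 0.24, and Tagln2, a small calponin-like bundler, by 2.24 ± 0.16, 1.89 ± 0.16 and 1.25 ± 0.16. Marcks, which crosslinks actin at the membrane, read 0.22 ± 0.19 at day 1 (adjusted p = 0.396; -0.10 under median-of-ratios scaling) and rose by 1.64 ± 0.19 and 2.30 ± 0.19 later. Cnn2, a non-muscle calponin, rose by 1.19 ± 0.19, 2.0 ± 0.19 and 1.88 ± 0.19. Vil1 and Eps8 organise the actin of brush border microvilli. Eps8 fell at day 14, with -0.64 ± 0.14 (adjusted p = 0.00322), and read -0.04 ± 0.14 and -0.23 ± 0.14 at days 1 and 7, where it was called lower under median-of-ratios scaling, at -0.41 and -0.71. Vil1 rose at day 1, by 0.51 ± 0.12, and fell at day 14, with -0.35 ± 0.12 (adjusted p = 0.00205 and 0.0319); it was not called at day 1 under median-of-ratios scaling (0.13), nor at day 14 at equal FPKM sums (-0.19), in a fit of 2 groups, or without sham day 14 replicate 1 or 2 or transplant day 14 replicate 1 or 2 (limma adjusted p = 0.0760 to 0.237 over these).

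Of 17 genes of myosin light chains and their regulators, 11, 14 and 12 rose at days 1, 7 and 14 and 0 fell. Myl12a and Myl12b encode regulatory light chains that bind Myh9 protein; they rose by 1.77 ± 0.23 and 1.29 ± 0.18 at day 1. Rhob, a small GTPase, rose by 1.77 ± 0.23, 2.02 ± 0.23 and 1.91 ± 0.23, and Rock2, a kinase that raises myosin light chain phosphorylation, by 1.52 ± 0.19, 1.64 ± 0.19 and 0.92 ± 0.19. Of 24 nucleation and elongation genes, 19, 20 and 12 rose, with Arpc1b, an Arp2/3 subunit, at 2.88 ± 0.21, 2.40 ± 0.21 and 2.02 ± 0.21. Cttn, which holds Arp2/3 branches, rose by 1.70 ± 0.14 at day 1, and the coronin Coro1c by 1.56 ± 0.14. Coro1a, a leukocyte relative of Coro1c, rose by 1.19 ± 0.28, 1.76 ± 0.28 and 2.36 ± 0.28; it is also in the leukocyte marker list.

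Among 19 genes that bind monomers, cap or sever filaments, 17, 16 and 11 rose and 0 fell. Capg, a capping protein, rose by 4.23 ± 0.25, 3.36 ± 0.25 and 2.71 ± 0.25, Scin, a severing protein, by 2.18 ± 0.20, 3.03 ± 0.20 and 2.73 ± 0.20, and Cfl1, cofilin, by 1.57 ± 0.12, 1.23 ± 0.12 and 0.74 ± 0.12. Among 22 focal adhesion genes, 15, 16 and 12 rose and 2 fell on each day. Vcl, vinculin, which binds both talin and alpha-actinin, rose by 1.93 ± 0.17, 1.73 ± 0.17 and 1.19 ± 0.17, and Itgb1, an integrin chain, by 1.66 ± 0.14, 1.26 ± 0.14 and 0.75 ± 0.14. The 2 that fell were Tln2, a talin, with -1.59 ± 0.21, -0.85 ± 0.21 and -0.58 ± 0.21 (limma adjusted p = 9.82e-06, 0.00395 and 0.0485), and Fhl1, a LIM protein, with -1.14 ± 0.12, -0.80 ± 0.12 and -0.93 ± 0.12. The day 14 call of Tln2 was lost in every fit that left out a library (adjusted p = 0.0611 to 0.164), with a pseudocount of 0.1, without the filter, at equal FPKM sums and with a replicate block (0.0536). Tes, a LIM protein of adhesions, rose by 2.36 ± 0.18, 1.85 ± 0.18 and 1.56 ± 0.18.

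Of the 9 other A-kinase anchoring proteins tested, 4, 3 and 2 rose and 0 fell, shares near those of all genes at days 7 and 14, and their median was 0.45, 0.32 and 0.30. Under median-of-ratios scaling 3 rose and 2 fell at day 1, none was called at day 7 with a median of -0.16, and 1 rose and 1 fell at day 14. As deposited, Akap2 rose by 1.03 ± 0.22 at day 1, read 0.32 ± 0.22 at day 7 (-0.16 under median-of-ratios scaling; called at equal sums, at 0.61) and rose by 0.61 ± 0.22 at day 14 (limma adjusted p = 0.00125, 0.260 and 0.0488). The day 14 call was lost under median-of-ratios scaling, with a pseudocount of 5, without the filter, with a replicate block, in a fit of 2 groups, and without replicate 1 or 3 of sham or of transplant day 14 (adjusted p = 0.0542 to 0.342). Akap8, a nuclear member, rose by 0.77 ± 0.13, 0.73 ± 0.13 and 0.68 ± 0.13, and Akap13, a guanine nucleotide exchange factor, by 0.82 ± 0.17 and 0.68 ± 0.17 at days 1 and 7; under median-of-ratios scaling both calls at day 7 were lost, at 0.26 and 0.25.

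Serum response factor itself, Srf, rose by 0.97 ± 0.31 at day 1 and 0.92 ± 0.31 at day 14 (limma adjusted p = 0.0179 and 0.0335) and read 0.69 ± 0.31 at day 7 (adjusted p = 0.0829). Both calls were lost under median-of-ratios scaling, at 0.64 and 0.67, and without the filter. The day 1 call was also lost in a fit of 2 groups, without sham day 1 replicate 2, at 0.73, and without transplant day 1 replicate 2, at 0.61. The day 14 call was also lost with a pseudocount of 5 and without sham day 14 replicate 1 or 3 or transplant day 14 replicate 2, at 0.69 to 0.94; day 7 was called at equal sums and in a fit of 2 groups. Its cofactor Mrtfa rose by 1.26 ± 0.25, 1.29 ± 0.25 and 1.11 ± 0.25 (adjusted p = 0.000653, 0.000645 and 0.00331). Mrtfb rose by 1.05 ± 0.24, 0.74 ± 0.24 and 0.84 ± 0.24 (adjusted p = 0.00237, 0.0217 and 0.0167), a call lost at days 7 and 14 under median-of-ratios scaling, at 0.35 and 0.59, at day 7 without sham day 7 replicate 3 or transplant day 7 replicate 1 or 2, and at day 14 without replicate 1 of sham or of transplant day 14. Myocd, the cofactor of smooth and cardiac muscle, did not pass the filter.

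For each of the 9, the genes with the most similar profile were found among 7885 tested genes with a mean of at least 5 FPKM, by the same RMS measure over 18 libraries, as a description. Flna lay nearest to Col4a1 (0.246), against a median of 1.13 over the candidates. Flnc lay nearest to Hmga1 (0.459) and Krt8 (0.508), with a median of 1.72. For Actn1 the nearest were Tubb5 (0.292) and Tubb2a (0.314), with a median of 1.28. Actn4, which moved least, had Raver1 (0.109) and Lmf2 (0.114), and its candidates' median was also the lowest, 0.42. Tpm1 had Anxa5 (0.175) and Arl4c (0.190), and Tpm4 had Cd24a (0.230) and again Arl4c (0.231). Myh9 had Tagln2 (0.163) and Stat3 (0.177). Akap12 lay nearest to Cldn1 (0.312) and Anxa3 (0.404), and Tmsb10 to Fblim1 (0.480) and Tubb2b (0.502). These names depend on the pseudocount, since 11 of the 18 pairs were found again with 0.1 and 7 with 5, whereas median-of-ratios scaling kept 16.

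Markers of cell types were counted in the same fit, in which 29.6%, 35.5% and 22.4% of all tested genes were called higher and 9.56%, 6.01% and 5.12% lower at days 1, 7 and 14. Proximal tubule markers, which include the receptor Lrp2 and the phosphate carrier Slc34a1, summed to 3304 to 3595 FPKM in sham at day 1 and 514 to 1006 in transplant, then 1464 to 1656 at day 7 and 1666 to 2272 at day 14; of 8 markers, 8 fell at day 1, 5 at day 7 and 4 at day 14. Smooth muscle and pericyte markers, from cells rich in actin genes, summed to 37.2 to 61.8 FPKM in sham and 85.0 to 135 in transplant at day 1, and to 49.0 to 67.4 and 106 to 177 at day 7, and 56.2 to 62.4 and 113 to 132 at day 14; of 8 tested, 6, 6 and 4 rose at days 1, 7 and 14. Of these, 0 fell, and the median difference was 1.02, 1.22 and 0.75 on the log2 scale. Among the 2, 2 and 4 not called was Myh11 on each day. It read 0.05 ± 0.31, -0.01 ± 0.31 and 0.45 ± 0.31 (limma adjusted p = 0.925, 0.982 and 0.296). Acta2, Tagln, Cnn1 and Lmod1 of this list are also in the actin lists.

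Fibroblast markers summed to 13.4 to 21.7 FPKM in sham and 51.2 to 82.5 in transplant at day 1, and to 135 to 294 and 149 to 208 in transplant at days 7 and 14, where sham read 18.4 to 24.5 and 19.7 to 25.4. Of these 8 markers, 5, 8 and 8 rose at the 3 days, and 1 fell at day 1. Leukocyte markers summed to 21.3 to 26.5 in sham and 27.4 to 53.1 in transplant at day 1, and to 111 to 138 and 86.9 to 158 later, where sham read 25.2 to 35.0 and 19.0 to 26.0; of 9 markers, 3, 8 and 9 rose. Endothelial markers summed to 73.6 to 97.3 in sham and 129 to 156 in transplant at day 1, 89.3 to 108 and 119 to 157 at day 7, and 81.9 to 96.4 and 136 to 146 at day 14; of 8 markers, 5, 2 and 5 rose, at day 7 a smaller share than that of all genes. Platelet markers summed to 1.54 to 2.81 in sham and 0.240 to 3.06 in transplant at day 1, with Gp9 at 0. They read 3.37 to 3.60 and 2.94 to 7.14 at day 7, and 1.67 to 2.10 and 3.07 to 5.475 at day 14. Of 2 tested, 0, 0 and 1 rose. In the transplant kidney, the mean sums of fibroblast, leukocyte, smooth muscle and pericyte, proximal tubule, platelet and muscle markers were higher at day 7 than at day 1. Only those of fibroblasts, leukocytes and proximal tubule were so without overlap of the libraries. The endothelial and podocyte mean sums were lower at day 7. The means of Flna, Tpm1 and Tmsb10 were higher at day 7 than at day 1, whereas the other 6 genes had their highest transplant mean at day 1. The part of these cells in the levels of the 9 genes was not tested.

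**Figure D5:**
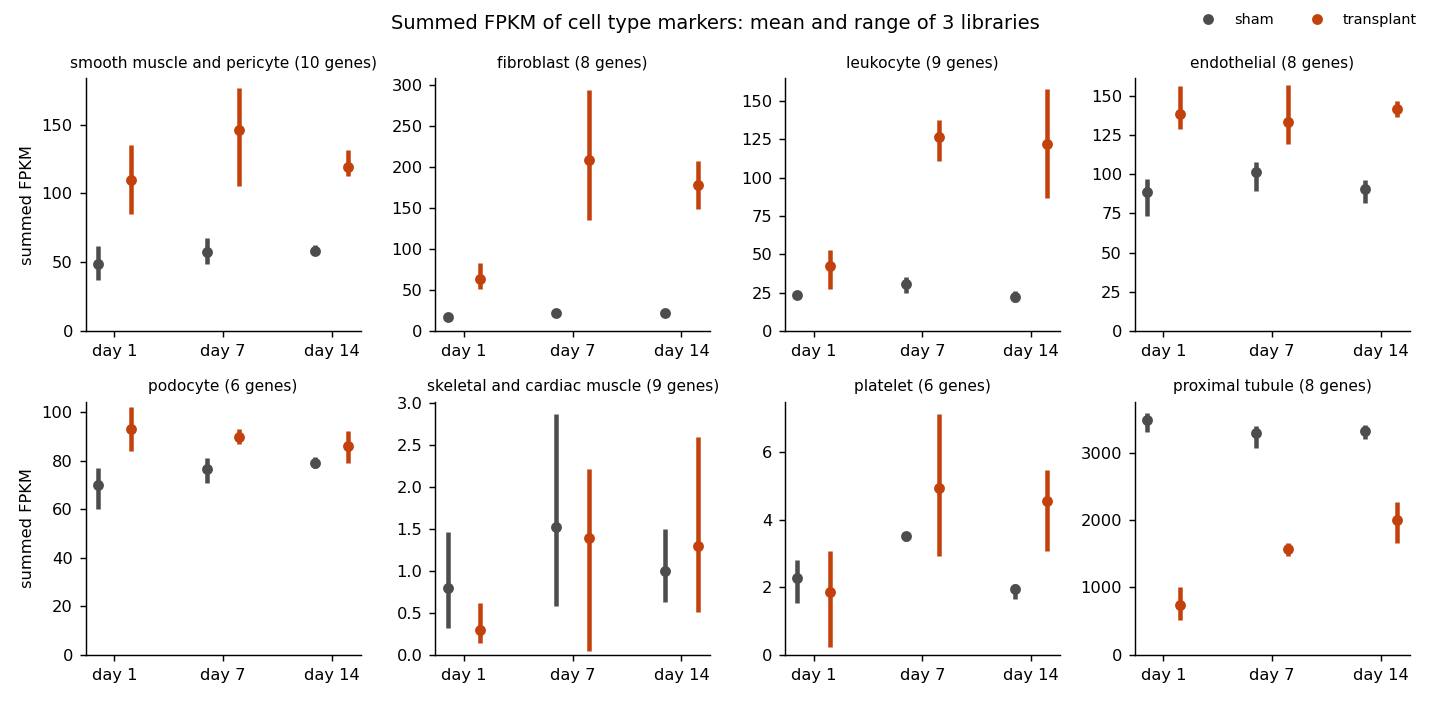
Summed FPKM of 8 lists of cell type markers (y axis) by day (x axis), with the mean and the range of 3 libraries. Proximal tubule sums are below sham on every transplant day, fibroblast and leukocyte sums are highest at days 7 and 14, and muscle sums stay below 3 FPKM.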

How the data were processed

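RNA from the kidneys of 18 sham or transplant libraries was sequenced by the authors, and the values deposited by the authors are FPKM per gene. Per the labels' protocols the RNA came from renal cortex and was extracted with Trizol; per the submitters' processing notes DESeq2 and the mm10 build were used. For the aligner, the quantifier and the gene models, the sources used here name nothing. Of 54848 rows, 54819 identifiers matched the GENCODE M21 annotation after repair of a lost letter; 17 rows of repeated identifiers and 111 less abundant rows of a repeated symbol were left out. At best 16.0% of low values were whole multiples of 1 read (tolerance 0.05), so the depth is unknown. No 2 libraries held identical values.

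Log2(FPKM + 1) values of genes with 1 FPKM or more in 3 or more libraries were fitted as 6 group means with limma 3.58.1 in R 4.3.3 (trended, robust empirical Bayes), with Benjamini-Hochberg adjustment over 15260 genes and a threshold of 0.05. The scripts were tested on simulated data. The 9 genes, the lists and the tests were chosen with earlier results of these data known. Text names the 9 genes, their relatives, the serum response factor list, for each list and day the 1 or 2 called genes of lowest adjusted p among those with separated groups, and the 2 nearest profiles per gene; the pathway genes that fell are named as well, chosen after their values were seen. Some genes that this rule names are not reported here. Alternatives were pseudocounts of 0.1 and 5, no filter or a mean of at least 5 FPKM, median-of-ratios or equal-sum scaling, a fit that is not robust, a fit of 2 groups, a replicate block and each library left out.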

Additional observations from a re-analysis of the deposited data

Results flagged for a closer look

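Between day 14 and day 1, the transplant effect was called higher for 4 and lower for 23 of the 133 tested genes of the actin lists. Between day 7 and day 1 it was called higher for 2 and lower for 1. The difference itself was tested (limma, adjusted over all tested genes). Of all tested genes, 10.3% differed between day 14 and day 1 and 4.37% between day 7 and day 1. Of the actin genes that differed, 14 are given here. Many of these genes were named for a small p on 1 of the days, which favours such differences, and Tln2 and Vil1 for having been called lower. Most of them had a smaller effect at day 14 than at day 1. On the log2 scale the day 14 minus day 1 difference was -1.22 for Tpm3, -1.14 for Actg1, -0.98 for Actb and -0.99 for Tagln2. It was -1.11 for Myl12a, -1.07 for Cttn, -1.11 for Coro1c, -1.53 for Capg, -0.83 for Cfl1 and -0.91 for Itgb1. Vil1 moved by -0.87, from higher at day 1 to lower at day 14. Tln2, lower than sham at each day, differed by 1.01, being less low at day 14. Tmsb4x and Marcks had a larger effect later: Tmsb4x by 1.10 at day 14, and Marcks by 2.08 at day 14 and by 1.43 at day 7.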

How the results depend on the processing

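None of the 405 alternative values of the 9 genes changed direction. Their values moved by more than the spread between replicates in 19 of 27 cases under median-of-ratios scaling, 15 with a pseudocount of 5, 10 at equal sums and 6 with a pseudocount of 0.1. The number called ranged over 9 at day 1, 8 to 9 at day 7 and 7 to 9 at day 14. Over the same settings, 2251 to 5394, 1780 to 8519 and 1754 to 4932 of all tested genes were called higher. Nothing is read from the counts of the 9, since the same contrasts chose them. The balance of calls moved with the scaling: 75.6%, 85.5% and 81.4% of calls were higher as deposited, and 48.8%, 47.7% and 50.8% under median-of-ratios scaling, with 2251 higher and 2366 lower at day 1, 1780 and 1950 at day 7, and 1754 and 1699 at day 14. Under it the pathway genes called lower were 9 at day 1, and higher and lower 57 and 5 at day 7 and 45 and 8 at day 14. Marcks at day 1 turned to -0.10 and Akap2 at day 7 to -0.16, neither called before or after; Vil1 at day 7 turned from 0.08 to -0.40, then called lower (limma adjusted p = 0.0199), whereas at equal sums it was called higher, at 0.38 (0.0128). Eps8, not called at day 1 (-0.04) or day 7 (-0.23), turned to 0.082 and 0.070 at equal sums; with libraries left out its day 1 value ranged from -0.11 to 0.052, above 0 without replicate 3 of sham or of transplant, and was uncalled in these fits; under median-of-ratios scaling it was called lower, at -0.41 and -0.71. A mean of at least 5 FPKM gave 3590 genes higher at day 7 and 2049 at day 14, equal sums gave 8519 higher at day 7 and 2 pathway genes lower at day 14, and a fit of 2 groups gave 2256 higher at day 14. Fewer genes tested, or fewer samples, are part of the first and last of these; for the scalings the cause was not tested. With libraries left out in turn, pathway genes called lower at day 14 numbered 2 to 4, against 4: 2 without sham day 14 replicate 1 or 2 or transplant day 14 replicate 1. At day 7 they numbered 2, against 3.

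The labels give groups the same replicate numbers. After each gene's group mean was subtracted, same-numbered sham and transplant libraries of a day correlated at -0.0384 to 0.104. The numbers were therefore not taken to pair libraries. With a replicate block, no count of called genes moved by over 1.5 times. At day 14, Tpm2 (limma adjusted p = 0.0530), Akap2 (0.0568) and Tln2 (0.0536) lost their calls. Depth is unknown, so no counting error is given for low values such as sham Flnc.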

Other observations

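By the ratio of highest to lowest, the transplant libraries of day 1 differed most for 2 of the 9 genes. Akap12 read 15.2, 41.4 and 57.2 FPKM and Flnc 22.4, 56.0 and 28.8. The spread was not confined to these, as Actn4 read 116, 188 and 95.4 and Actn1 52.1, 98.0 and 92.4. The same libraries spanned less for Tmsb10, at 68.0, 73.9 and 90.3. Replicate 1 was the lowest of the 3 for Akap12, Flnc and Tmsb10.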
